A study of Mus musculus with 43 samples.

Results

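The cells described here are crypt epithelial cells of the irradiated mouse small intestine that carried at least 3 UMIs (unique molecular identifiers, each standing for 1 captured RNA molecule) of Ly6a, called Ly6a-high cells from here on. They were chosen by that measured value, so the Ly6a level itself is a description of the choice and no result. There were 579 Ly6a-high cells among 1418 kept cells of the 2 irradiated libraries, out of 15587 kept cells in all 7 single-cell libraries. A cell was kept with at least 500 UMIs and at most 20% of them from mitochondrial genes. The cells they were compared with, called Ly6a-zero cells, came from the same libraries and had 0 Ly6a UMIs, 458 in all. The other 381 cells lay in between.

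Ly6a, also called Sca-1, encodes a small surface protein held by a lipid anchor. In the gut it is little expressed in undamaged crypts and marks epithelium that is being rebuilt after injury, where it appears with genes of the fetal gut epithelium such as Anxa1 and Clu. High-dose radiation kills many cycling crypt stem cells, activates the p53 damage response, and is followed by a wave of proliferation that regrows the crypts.

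The study followed this regrowth in mice and asked how it relates to organoids given TGFB1, a secreted cytokine. Both irradiated libraries came from Mki67tm1.1Cle/J mice, in which a red fluorescent protein (RFP) is joined to the Ki67 protein of cycling cells, 56 h after 12 Gy of whole-body irradiation. The non-irradiated library (1 library) came from a littermate of the same strain. In both conditions crypts were taken from the proximal small intestine and dissociated, and living RFP-positive cells were sorted, so cells outside the cycle were largely removed by the sort. Crypts of irradiated and non-irradiated mice were passed through strainers of different mesh. The labels give no age and do not say whether the 2 irradiated libraries came from separate mice. For Ly6a-high against Ly6a-zero cells, p-values rest on how that difference varied between these libraries, which may be technical. The estimate of that variation also borrows from other genes. The organoids, cultured crypt epithelium, were wild-type C57BL/6. Single-cell libraries of organoids (1 each) were taken on day 8 after 4 Gy and held cells given vehicle for 24 h or TGFB1 at 1 ng/mL for 6, 15 or 24 h. Bulk libraries of organoids (3 per group) had TGFB1 at 2 ng/mL or vehicle for 24 h. They were labelled day 7 without irradiation, day 7 after 4 Gy, and day 11 after 4 Gy. Day numbers of organoids follow the labels and do not state the time since irradiation or since the end of treatment.

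Ly6a-high cells made up the same share of both irradiated libraries. They were 293 of 719 cells in replicate 1 (40.8%, exact 95% binomial interval 37.1 to 44.4) and 286 of 699 cells in replicate 2 (40.9%, 37.2 to 44.7). In the non-irradiated library 0 of 1846 cells qualified, with an exact upper bound of 0.200%. In organoids the share was 5 of 2932 cells (0.171%) with vehicle and 0 of 4283 (exact upper bound 0.0861%) after 6 h of TGFB1. It was 6 of 2890 (0.208%) after 15 h and 14 of 2218 (0.631%) after 24 h. The 2 irradiated libraries thus lie far above the other 5, with no overlap of their intervals. Intervals and limits cover counting error only. Over whole libraries Ly6a stood at 268 and 313 CPM (the UMI count scaled to a common library total) in the irradiated libraries, at 0.660 in the non-irradiated one and at 0.483 to 7.15 in organoids. With 1 non-irradiated library and 1 per organoid time, these differences have no replicate test. A share of this kind depends on depth, and the kept cells had a median of 14399 and 13500 UMIs in the irradiated libraries against 11969 in the non-irradiated one. After every cell was thinned to 5000 UMIs and a bar of 2 Ly6a UMIs was set, the shares were 31.5% and 31.0% in the irradiated libraries and 0 of 1717 cells in the non-irradiated one.

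**Figure D1:**
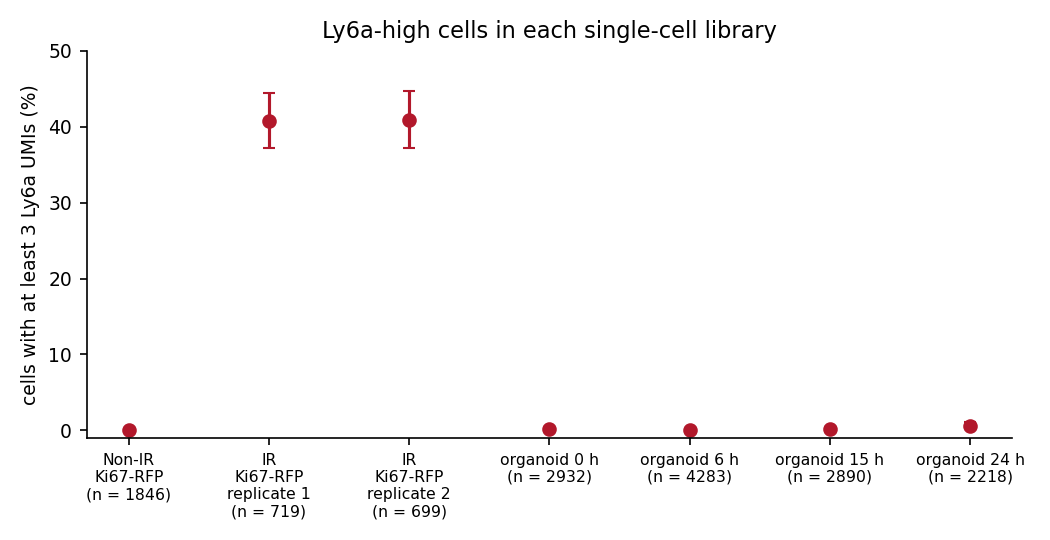
Percent of kept cells with at least 3 Ly6a UMIs in each of the 7 single-cell libraries (x axis, number of cells in brackets), with exact 95% binomial intervals as bars. Both irradiated Ki67-RFP libraries sit at 40.8% and 40.9% and the other 5 libraries at or below 0.631%.

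Among Ly6a-high cells the Ly6a count was widely spread, with a median of 8 UMIs in both libraries and a maximum of 167 and 126. Just inside the bar, 59 and 42 cells had exactly 3 UMIs, and just outside it 71 and 63 had exactly 2. The cells with 3 UMIs had a median total of 12370 and 12805 UMIs and those with 2 had 15706 and 14289, so the cells just inside the bar were not the deeper ones. Depth did differ between the full groups, at a median of 18391 and 18728 UMIs in Ly6a-high cells and 11311 and 8957 in Ly6a-zero cells. For the comparison of genes, Ly6a-high cells were therefore paired with Ly6a-zero cells of the same library and nearly the same total. A partner was found for 201 of the 293 Ly6a-high cells in replicate 1 (median totals of the pairs 12506 and 12159) and 182 of the 286 in replicate 2 (12680 and 11000). The paired Ly6a-high cells were thus shallower than Ly6a-high cells as a whole. The mitochondrial share of UMIs had a median of 2.37% in Ly6a-high and 1.49% in Ly6a-zero cells of replicate 1, and 2.99% and 3.36% in replicate 2, and its part in the results was not tested. No cell barcode was shared between the Ki67-RFP libraries, and 1 was shared between replicate 2 and the organoid library of 24 h.

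The labelled tissue was checked against markers of each cell type. Epcam, the epithelial adhesion molecule, was detected in 96.5% of Ly6a-high and 96.5% of Ly6a-zero cells of replicate 1, and in 97.8% and 96.2% in replicate 2, after thinning to 5000 UMIs. Its level was 1051 and 1053 CPM in the Ly6a-high sums and 969 and 1004 in the Ly6a-zero sums, and it was not called (log2 difference 0.09). Cells with at least 3 UMIs of T-cell genes numbered 0 and 0 among the paired Ly6a-high cells and 4 and 1 among the paired Ly6a-zero cells. The summed level of the 25 immune markers was 23.2 and 14.0 CPM in Ly6a-high cells and 215 and 133 in Ly6a-zero cells. Of 13 stromal and endothelial markers only Pecam1 was abundant enough to test, and it was not called. Of its UMIs 68.7% and 75.6% lay in cells with fractional counts, where reads were split between similar genes. The pan-leukocyte marker Ptprc was too low to test. At least 1 UMI of an immune or stromal marker was found in 40.3% and 28.6% of the paired Ly6a-high cells and in 34.8% and 36.3% of the paired Ly6a-zero cells, higher in Ly6a-high cells in replicate 1 and lower in replicate 2.

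The comparison of Ly6a-high with Ly6a-zero cells asks what else distinguishes the cells that carry this surface antigen after irradiation. In Ly6a-high cells 13 of 16 tested genes of the regenerative, fetal-like state and 12 of 16 targets of p53 were higher. The stem cell gene Olfm4 was lower, as were 8 of 17 S-phase genes, 5 of 15 enterocyte genes and 3 of 10 goblet cell genes. Of the S-phase genes 0 were called with DESeq2, without the library block or with pairs formed within clusters, and the goblet genes gave 4 higher and 0 lower within clusters. Olfm4 was not called without the library block. UMIs were summed over the paired cells, giving 4 sums (Ly6a-high and Ly6a-zero in each library), and edgeR's quasi-likelihood test was run on them with the library as a block and Benjamini-Hochberg adjustment. Of 11610 genes tested, 426 (3.67%) were higher and 442 (3.81%) lower at an adjusted p under 0.05, 868 (7.48%) in all. All 868 had the same sign in both libraries. A difference of at least 1 on the log2 scale was reached by 138 of the higher and 191 of the lower genes. At an unadjusted p under 0.05 there were 2067 genes, against 868 called. DESeq2 on the same sums called 60 higher and 74 lower, and edgeR without the library block called 22 and 37. When pairs were formed within the same transcriptional cluster the counts were 70 and 51, with 144 and 139 pairs. In such sums fewer cells of a type and less RNA per cell cannot be told apart.

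Before the values, the sequences upstream of some of these genes are shown, because the regenerative and p53 target genes moved as groups and promoter letters can be read beside them. Promoters came from RefSeq (build GRCm38.p6), 250 bases before to 50 after each gene's first listed start, and both strands were searched. The AP-1 motif TGANTCA, bound by Fos and Jun proteins, was present in 7 of the 15 regenerative-list promoters in the table (46.7%), against 5.00% of the 8758 promoters of tested genes and 7.93% of all 27025. Among genes called higher it was in 8.41% of 333 promoters and among genes called lower in 7.49% of 307. A p53 half-site, 1 unit of 10 bases, was in 5 of 13 p53-list promoters (38.5%). It was in 6.76% for tested genes, 12.9% for genes called higher and 5.21% for genes called lower. A full p53 element was not searched for. The TEAD motif GGAATG was in 13.3% of regenerative-list promoters and 11.8% of those of tested genes. The lists hold known members of these pathways, so the p53 share partly restates how that list is made. The AP-1 promoters were those of Sprr1a, Emp1, S100a11, Anxa2, Il1rn, Anxa10 and Gja1, of which Anxa10 was not called and Gja1 was too low to test. Shown are the 200 bases before the start, 5′ to 3′ on the gene's strand, with the motif in capitals. AP-1 is marked in Sprr1a (chr3:92485882-92486081, minus strand), Emp1 (chr6:135362731-135362930, plus strand) and S100a11 (chr3:93520296-93520495, plus strand). A single p53 half-site is marked in Mdm2 (chr10:117710759-117710958, minus strand) and in Ccng1 (chr11:40755287-40755486, minus strand).
Sprr1a: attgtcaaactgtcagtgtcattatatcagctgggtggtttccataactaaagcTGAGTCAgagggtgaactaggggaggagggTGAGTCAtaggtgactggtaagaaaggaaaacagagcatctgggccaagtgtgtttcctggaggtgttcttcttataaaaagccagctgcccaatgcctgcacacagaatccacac
Emp1: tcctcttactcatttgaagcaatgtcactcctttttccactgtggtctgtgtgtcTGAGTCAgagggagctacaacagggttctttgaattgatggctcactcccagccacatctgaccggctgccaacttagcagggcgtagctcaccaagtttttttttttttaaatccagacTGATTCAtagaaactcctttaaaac
S100a11: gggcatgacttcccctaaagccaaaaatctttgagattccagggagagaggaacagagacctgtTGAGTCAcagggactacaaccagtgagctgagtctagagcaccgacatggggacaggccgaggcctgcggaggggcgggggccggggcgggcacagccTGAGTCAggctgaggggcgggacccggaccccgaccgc
Mdm2: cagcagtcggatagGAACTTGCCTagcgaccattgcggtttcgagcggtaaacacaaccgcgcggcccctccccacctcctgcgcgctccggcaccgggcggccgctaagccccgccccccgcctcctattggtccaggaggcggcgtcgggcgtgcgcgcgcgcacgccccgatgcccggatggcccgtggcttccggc
Ccng1: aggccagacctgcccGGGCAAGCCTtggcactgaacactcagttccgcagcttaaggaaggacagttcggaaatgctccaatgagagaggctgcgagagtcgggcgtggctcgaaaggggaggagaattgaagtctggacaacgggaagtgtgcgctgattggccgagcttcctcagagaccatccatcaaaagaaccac
In Sprr1a the capitals begin 146 and 116 bases before the start, in Emp1 145 and 25, and in S100a11 136 and 38, so each of these promoters holds a pair of matches. A match describes letters in this window and is neither a bound site nor a cause.

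Other genes of the Ly6 family come first, since they share the fold and anchor of the selecting gene. Of 13 family members on the list 5 were abundant enough to test, 4 were higher and 1 lower, with a median log2 difference of 0.75 (all genes tested, -0.00). Ly6d, a surface antigen of stratified epithelium and early lymphocytes, was at 29.5 and 34.4 CPM in the Ly6a-high sums of replicates 1 and 2 and at 2.31 and 3.80 in the Ly6a-zero sums. Every Ly6a-high sum exceeded every Ly6a-zero sum, a log2 difference of 3.40 ± 0.31 (SE; edgeR quasi-likelihood, Benjamini-Hochberg adjusted p = 6.39e-08). Ly6c1 stood at 17.0 and 19.4 against 1.74 and 3.42 CPM (log2 2.85 ± 0.37). Ly6d and Ly6c1 had 0 UMIs in the whole non-irradiated library, with an exact Poisson upper bound of 0.143 CPM. Few cells carried these RNAs. At 5000 UMIs per cell, 13 of 201 and 18 of 182 Ly6a-high cells had a Ly6d UMI, against 3 of 201 and 4 of 182 Ly6a-zero cells. Ly6e, which is widely expressed, differed less, at 269 and 277 against 157 and 167 CPM (log2 0.75). Lypd8, a glycosylated protein of the gut lumen that keeps bacteria off the epithelium, was higher by 0.39. Ly6m was lower (log2 -2.72), but 52.7% and 77.9% of its UMIs lay in cells with fractional counts, where reads were split between similar genes. For Ly6a that share was 0.412% and 4.23%, and for Ly6c1 1.39% and 3.51%.

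Regenerative and fetal-like genes were the list with the most members higher. Of 20 genes 16 were tested, 13 were called higher and 0 lower, all 16 had a positive difference in both libraries, and the median log2 difference was 1.24 (1.57 in replicate 1, 1.31 in replicate 2). With pairs formed within clusters 12 of 16 were called (median 0.79), with DESeq2 12, and without the library block 5. One of them was S100a6, a small calcium-binding protein, at 1841 and 2796 CPM in Ly6a-high cells and 572 and 872 in Ly6a-zero cells. The Ly6a-high sums stood above both Ly6a-zero sums, 3.20-fold on average (log2 1.68 ± 0.07, adjusted p = 1.07e-13 by edgeR's quasi-likelihood test).

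Of the 6 annexins on this list, proteins that bind membranes in the presence of calcium, 5 were called higher, and Anxa10 was not. Anxa8 was at 39.7 and 65.9 against 7.81 and 6.07 CPM (log2 2.84 ± 0.25), and Anxa1, known for limiting inflammation and for marking fetal gut cells, at 38.0 and 44.3 against 5.50 and 8.35 (2.58 ± 0.24). Anxa3 was at 89.9 and 116 against 28.6 and 41.0 (1.57 ± 0.14), and Anxa2 at 943 and 1146 against 404 and 572 (1.11 ± 0.08). The groups did not overlap for any of the 4. After thinning, an Anxa1 UMI was found in 12.9% and 20.3% of Ly6a-high cells against 1.99% and 4.40% of Ly6a-zero cells.

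Clu encodes clusterin, a secreted chaperone that marks revival stem cells of the damaged gut. It was at 72.6 and 138 CPM in Ly6a-high cells and 24.3 and 45.6 in Ly6a-zero cells (log2 1.59 ± 0.14, adjusted p = 4.97e-08, edgeR). The difference held in each library, and the value of replicate 2 Ly6a-zero cells stayed below that of replicate 1 Ly6a-high cells. Without thinning or matching, cells with at least 3 Clu UMIs were 44 of 293 Ly6a-high cells (15.0%) and 8 of 223 Ly6a-zero cells (3.59%) in replicate 1, and 49 of 286 (17.1%) and 13 of 235 (5.53%) in replicate 2. Ly6a-high cells held 72.1% of the 61 such cells in replicate 1 and 69.0% of the 71 in replicate 2, while most Ly6a-high cells did not reach that Clu level. For Anxa1 the same count gave 31 of 293 and 32 of 286 Ly6a-high cells, against 1 of 223 and 0 of 235 Ly6a-zero cells.

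The remaining genes of this group included barrier and wound genes. Il1rn, the secreted antagonist of the interleukin-1 receptor, was at 84.0 and 123 against 17.6 and 41.8 CPM (log2 1.87 ± 0.16). Sprr1a, a crosslinked envelope protein of squamous epithelium, was at 23.6 and 20.1 against 2.31 and 3.42 CPM (2.95 ± 0.35) and had 0 UMIs in the non-irradiated library. Emp1, an epithelial membrane protein, was at 112 and 131 against 35.0 and 64.5 CPM (1.33). For none of these 3 did a Ly6a-zero sum reach a Ly6a-high sum. Basp1, Il33 and Anxa10 were tested and not called, at log2 0.89, 0.84 and 0.90. Spp1, Gja1 and Msln were among the members too low to test.

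**Figure D2:**
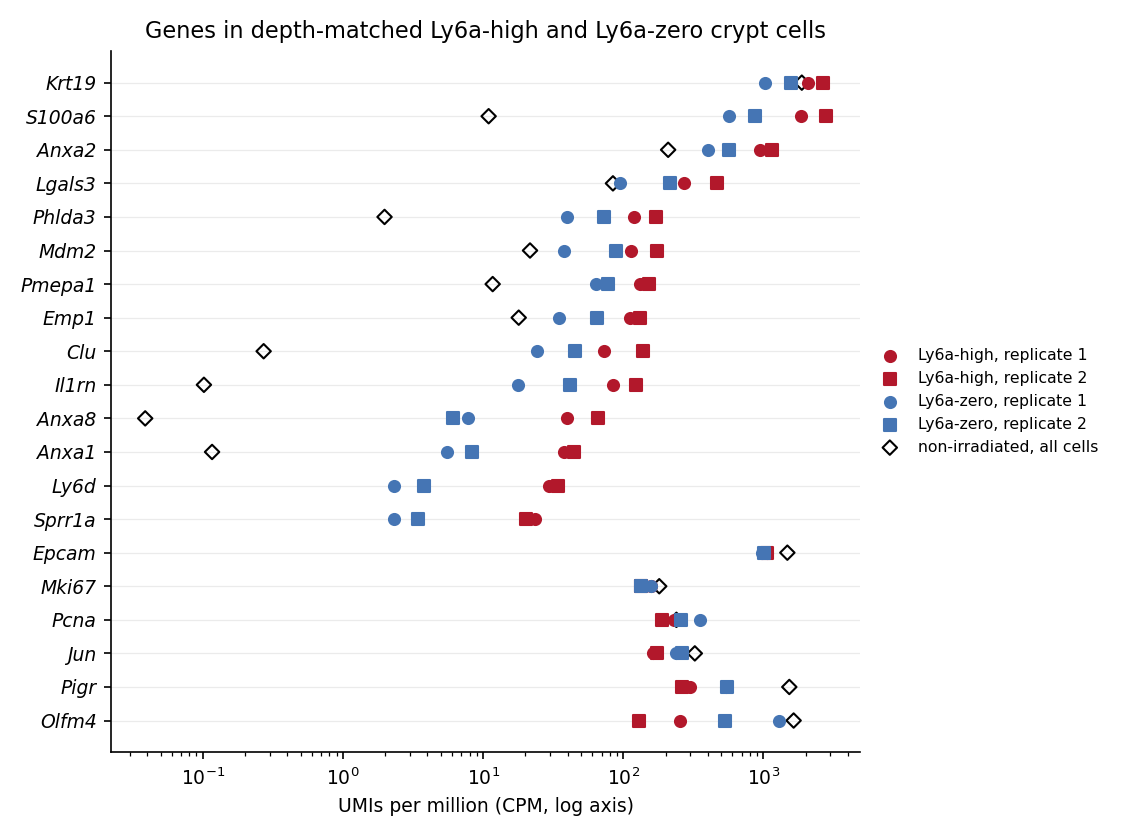
CPM (log axis) of 20 genes in the depth-matched Ly6a-high sums (red) and Ly6a-zero sums (blue), circles for replicate 1 and squares for replicate 2, with all cells of the non-irradiated library as open diamonds; the 0 values of Ly6d and Sprr1a there cannot be drawn. From Krt19 down to Sprr1a the red points lie to the right of the blue point of the same library. For Epcam red lies slightly to the right, for Mki67 the groups overlap, and from Pcna to Olfm4 red lies to the left.

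Ly6a-zero cells were not at the level of unirradiated crypts for these genes. S100a6 was at 10.9 CPM, Clu at 0.272, Il1rn at 0.102, Anxa8 at 0.0388 and Anxa1 at 0.116 in the non-irradiated library, each below both Ly6a-zero sums. Of the 426 genes called higher, 297 (69.7%) had both Ly6a-zero sums above the non-irradiated library and 392 (92.0%) had both Ly6a-high sums above it. Over all genes tested the same counts were 50.1% and 52.2%. With 1 non-irradiated library this order has no test.

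Several genes outside the list were among the 15 largest differences of genes with a mean of at least 50 CPM in the higher group. Slc4a11, a membrane transporter (log2 1.88), and Serpinb5, the epithelial serpin maspin (1.71), were higher, as were the calcium-binding S100a14 (1.46), the actin-capping Capg (1.38) and the galectin Lgals3 (1.30). Lgals3, which binds sugars on cell-surface proteins, was at 270 and 464 against 94.3 and 216 CPM. Pmm1, a phosphomannomutase, was higher by 1.29 on the log2 scale, and within clusters its log2 difference of 0.69 was not called (adjusted p = 0.11, edgeR). The simple-epithelium keratins Krt19, Krt8 and Krt18 were higher by 0.89, 0.67 and 0.62, the 3 called of 10 epithelial genes (median 0.18). Krt19 was at 2070 and 2669 against 1026 and 1561 CPM, beside 1877 in the non-irradiated library.

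Integrins and laminins, the receptors and ligands by which epithelium holds to its basement membrane, had 5 of 12 members higher and 0 lower (median 0.73). Among them were Itgb4, Lama3, Lamb3 and Itgb6. Itgb4, an integrin chain of hemidesmosomes, was at 133 and 155 against 50.3 and 95.3 CPM (log2 1.04). Lama3 and Lamb3, which encode laminin chains, were higher by 1.51 and 0.97 on the log2 scale. Within clusters 2 of the 12 were called, and with DESeq2 2. Of 12 tested genes of the actin cytoskeleton 4 were higher (Myh9, Actg1, Tagln2 and Tpm1, log2 0.27 to 0.44), and within clusters 0 were called.

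Targets of p53, the transcription factor switched on by DNA damage, were higher as a group. Of 16 genes tested 12 were called higher and 0 lower, with a median of 0.84 (1.10 in replicate 1, 0.59 in replicate 2), and 15 were positive in both libraries. Phlda3, an inhibitor of Akt signalling, was at 120 and 170 CPM in Ly6a-high cells against 39.9 and 72.5 in Ly6a-zero cells (log2 1.39 ± 0.13, adjusted p = 8.38e-08, edgeR), with no overlap. Its level in the non-irradiated library was 1.98 CPM. Trp53inp1, which promotes p53 signalling, was at 53.1 and 73.9 against 12.2 and 38.3 CPM (1.44 ± 0.27). Mdm2, the ligase that degrades p53, was at 114 and 173 against 37.9 and 88.8 (1.25 ± 0.14), with 78.1% and 72.6% of its UMIs in cells with fractional counts. Zmat3, an RNA-binding protein induced by p53, was higher by 1.14.

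The cell cycle inhibitor Cdkn1a was not called. It was at 265 and 386 CPM in Ly6a-high cells and 115 and 272 in Ly6a-zero cells (log2 0.84 ± 0.18, adjusted p = 0.0615, edgeR), and the Ly6a-zero value of replicate 2 was above the Ly6a-high value of replicate 1. A Cdkn1a UMI was present in 66.2% and 72.0% of thinned Ly6a-high cells against 43.8% and 61.0% of Ly6a-zero cells. Within clusters 2 of 16 were called (median 0.33), with DESeq2 6, and without the library block 0. With cells of the goblet-like, enterocyte-like, enteroendocrine-like, Paneth-like and immune-like clusters left out, 9 were called.

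Between cells the regenerative list was higher where there were more Ly6a UMIs, at each step but the one from 1 to 2 UMIs in replicate 1, in cells between the depth quartiles of each library. Its summed level had a median over cells of 1747, 2700, 2635, 3116, 3504 and 5501 CPM in replicate 1 for cells with 0, 1, 2, 3 to 4, 5 to 9 and 10 or more Ly6a UMIs. In replicate 2 the medians were 2071, 2446, 3779, 3983, 5007 and 7556. The p53 list ran from 683 to 1919 in replicate 1, higher at each step, and from 1527 to 2656 in replicate 2, where it fell to 1175 at 1 UMI and from 1799 at 2 UMIs to 1688 at 3 to 4. These bins hold 31 to 122 cells each, and cells with 10 or more Ly6a UMIs were also the deepest in replicate 2 (median 16776 UMIs against 12153 at 0). Single members did not all follow the summed list, which is weighted to abundant genes such as S100a6. Summed over the cells of a bin, Clu in replicate 1 was at 139, 123 and 76.2 CPM at 3 to 4, 5 to 9 and 10 or more Ly6a UMIs. In replicate 2 Clu was at 42.3 CPM at 0 UMIs, 16.3 at 3 to 4 and 262 at 10 or more. Anxa1 went from 6.50 to 49.3 and from 7.36 to 59.9 CPM between the first and last bins. The values are a description over cells, with no test.

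**Figure D3:**
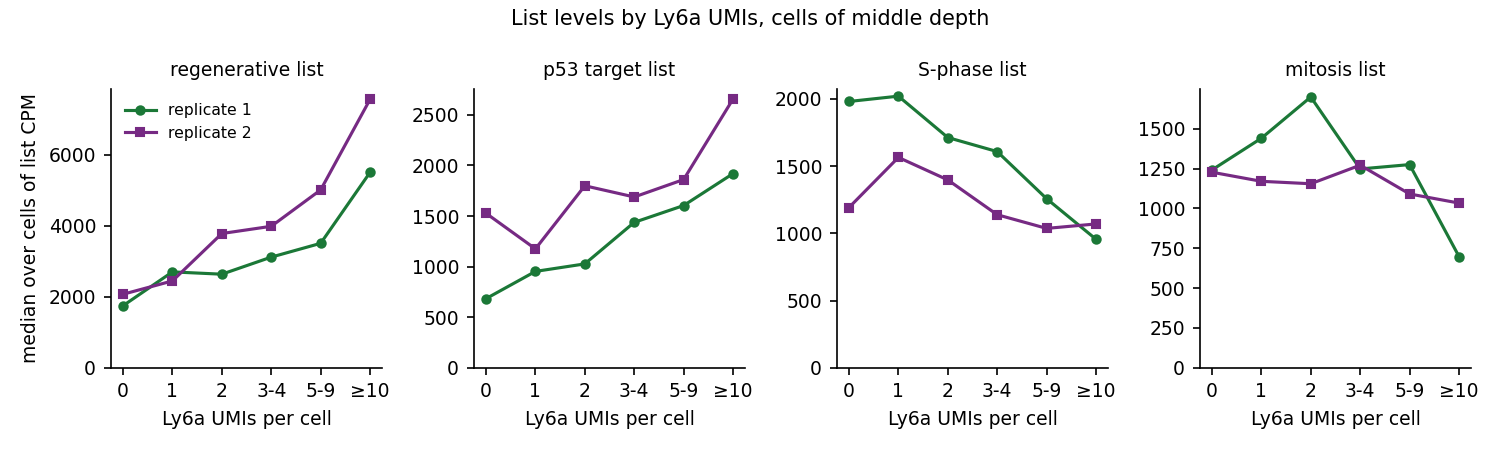
Median over cells of the summed CPM of 4 gene lists (y axis, 1 panel per list) by number of Ly6a UMIs per cell (x axis), for cells between the depth quartiles of each irradiated library, green circles for replicate 1 and purple squares for replicate 2. The regenerative list goes from 1747 to 5501 CPM in replicate 1 and from 2071 to 7556 in replicate 2. The S-phase list goes from 1980 to 956 and from 1192 to 1070, with 1564 at 1 UMI in replicate 2. The mitosis list goes from 1242 to 699 and from 1227 to 1034.

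In the paired sums proliferation genes split by phase. Over single cells between the depth quartiles, the mitosis list too was lower at 10 or more Ly6a UMIs than at 0. Its median over cells was 1242 CPM at 0 and 699 at 10 or more in replicate 1, and 1227 and 1034 in replicate 2. Of 17 S-phase genes, which copy DNA, 8 were lower and 0 higher, all 17 were negative in both libraries, and the median was -0.50 (-0.60 and -0.34). Pcna, the sliding clamp of DNA polymerase, was at 231 and 190 CPM in Ly6a-high cells against 352 and 259 in Ly6a-zero cells (log2 -0.53, adjusted p = 0.000694, edgeR). Slbp, which binds histone mRNA, (log2 -0.69) and Uhrf1 and Hells, which maintain DNA methylation (-0.58 and -0.55), were lower. Cells with fractional counts held 75.6% and 71.8% of the Slbp UMIs. The helicase subunits Mcm2, Mcm4, Mcm6 and Mcm7 were the other called members. Of 18 mitosis genes 0 were called in either direction by edgeR (3 at an unadjusted p under 0.05) and 0 by DESeq2, with a median of 0.01. Mki67, the gene of the sorting reporter, was at 156 and 134 against 158 and 135 CPM. After thinning, a Mki67 UMI was found in 48.3% and 40.7% of Ly6a-high and 47.8% and 44.5% of Ly6a-zero cells. Without thinning these shares were 73.1% and 61.0% in Ly6a-high and 76.6% and 62.6% in Ly6a-zero cells. Within clusters 0 of the 17 S-phase genes were called (median -0.15), and 0 with DESeq2 or without the library block.

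Crypt stem cell genes did not move together. Of 20 tested 6 were lower and 1 higher (median -0.17, with -0.40 in replicate 1 and 0.09 in replicate 2). With DESeq2, and with pairs formed within clusters, 1 was lower and 0 higher. Without the library block 0 were called, so Olfm4 was not called there either. Olfm4, a secreted glycoprotein of Notch-active stem and early progenitor cells, differed most. It was at 255 and 129 CPM in Ly6a-high cells and at 1285 and 535 in Ly6a-zero cells, 4.61-fold higher in Ly6a-zero cells on average (log2 -2.20 ± 0.09, adjusted p = 1.14e-13, edgeR), with no overlap. At 5000 UMIs per cell 45.3% and 29.7% of Ly6a-high cells still had an Olfm4 UMI, against 66.7% and 44.0%. Lgr5, the Wnt-coupled receptor that defines crypt base stem cells, was low throughout, at 14.2 and 9.15 against 9.83 and 7.21 CPM (log2 0.45 ± 0.31), and was not called. Cells with fractional counts held 47.4% and 43.8% of the Lgr5 UMIs. The Wnt and Bmp modulator Smoc2, the guidance receptor Ephb3 and the Wnt target Axin2 were lower (log2 -0.82, -1.03 and -0.46). Cd44, a hyaluronan receptor and Wnt target, was the 1 higher member (0.44), at 349 and 367 against 255 and 269 CPM. Rgcc, a cell cycle regulator picked after its values were seen, was lower (log2 -1.72) and was 1 of 3 genes called lower in all 16 settings.

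Signalling pathways were mostly uncalled or mixed. Of 12 tested YAP targets 3 were higher and 0 lower (median 0.32): F3, the tissue factor that starts clotting (log2 1.74), Myof, a membrane repair protein (2.18), and Ajuba, a junction-linked inhibitor of the Hippo pathway (1.29). The classic targets Ccn1 and Ccn2 were at -0.03 and 0.25 and were not called. Within clusters 0 of 11 YAP targets were called. Of 9 tested TGFB response genes 2 were higher and 1 lower: Pmepa1, a feedback inhibitor of TGFB signalling (1.01, at 132 and 153 against 63.3 and 77.8 CPM), the receptor Tgfbr2 (0.56), and Tgfbi, a matrix protein (-2.35, on 9 and 1 against 21 and 29 UMIs). Within clusters, with DESeq2 and without the library block 1 of these genes was higher and 0 lower, and with library sizes alone or without clusters 7 to 11 the counts were 2 and 0. Of 8 AP-1 factors Fosl1 was higher (1.17), and Fos, Fosb, Jun and Atf3 were lower (-0.44, -1.24, -0.59 and -0.79), while within clusters 0 were called. Jun was at 162 and 173 against 238 and 264 CPM. AP-1 genes respond to tissue handling, and of 8 dissociation and heat-shock genes 1 was higher (Hspa1b, 0.81) and 0 lower.

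Immune response genes of the epithelium gave no common direction. Of 22 interferon-stimulated genes tested, the chemokine Cxcl10 (log2 1.41) and the GTPase Gbp2 were higher, and Xaf1 was lower (-0.76), with 99.4% and 99.9% of its UMIs in cells with fractional counts. Gbp2 rests on 14 and 12 UMIs against 3 and 0. With DESeq2, without the library block, within clusters, without depth matching, at a bar of 2 Ly6a UMIs, and without cells carrying an immune or stromal marker UMI, 0 of the list were higher. The list's median was 0.48 in replicate 1 and -0.01 in replicate 2. Of 11 antigen presentation genes the peptide transporter Tap1 and the proteasome subunit Psmb9 were higher (0.93 and 0.79), and B2m, H2-K1, H2-T23, H2-Ab1 and Cd74 were lower. With DESeq2, without the library block and within clusters 0 of these 11 were called. With library sizes alone 0 were higher and 3 lower. With the 5 small named clusters left out the counts were 2 higher and 1 lower, with a median of 0.57, and Cd74 turned to 0.76 and was not called. Of 9 NF-kB response genes 0 were called by edgeR (2 at an unadjusted p under 0.05) and 0 by DESeq2 (median 0.17). Of 8 epithelial defence genes 2 were lower and 0 higher. The antimicrobial lectins Reg3b and Reg3g were abundant in both groups and not called, with Reg3g at 1124 and 965 CPM in Ly6a-high and 768 and 1050 in Ly6a-zero cells. The lectin Reg3a (log2 -1.70, on 4 and 8 against 16 and 22 UMIs) and Pigr, which carries antibodies across the epithelium (-0.95), were the lower members.

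Genes of differentiated lineages were lower wherever this comparison called them. Of 15 enterocyte genes 5 were lower and 0 higher (median -1.59, -1.06 in replicate 1 and -2.29 in replicate 2). Apoa4, an apolipoprotein of fat absorption, was at 11.9 and 32.6 CPM in Ly6a-high sums against 292 and 1009 in Ly6a-zero sums (log2 -4.82 ± 0.12, adjusted p = 1.92e-18, edgeR). Lct, the brush-border lactase, was at 0.568 and 1.10 against 22.6 and 80.1 CPM (-5.82). Ggt1, Cyp3a11, Apoc3, Rbp2, Selenop and Guca2b, most of them genes of mature absorptive cells, were low too (log2 -4.81 to -2.82). They were among the 10 lowest called genes with a mean of at least 50 CPM in the higher group. That ranking leaves out Gm, Rik, mitochondrial and ribosomal protein genes. Fabp1, the abundant fatty acid binding protein, was at 48.0 and 56.4 against 111 and 1041 CPM and was not called (log2 -2.80 ± 1.46, adjusted p = 0.653, edgeR).

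The sums of these genes were carried by few cells. The enterocyte list summed to 1302 and 1626 CPM in Ly6a-high and 2311 and 7189 in Ly6a-zero cells, while the median cell had 1152 and 1228 against 1081 and 1333. An Apoa4 UMI was found in 8.46% and 14.8% of thinned Ly6a-high cells and 9.95% and 27.5% of Ly6a-zero cells. With the enterocyte-like and the other small named clusters left out Apoa4 was at log2 -1.53 and not called (adjusted p = 0.48, edgeR). Goblet cell genes, of mucus-secreting cells, had 3 of 10 lower (Spdef, Atoh1 and Klk1) and 0 higher, but 4 of 9 higher and 0 lower when pairs were formed within clusters. The other 7, among them Muc2, Tff3, Agr2 and Zg16, were not called. Of the 10 genes 8 were negative in both libraries, while Zg16 was at 159 and 17.2 against 3.47 and 18.2 CPM. Paneth cell genes, of the antimicrobial cells at the crypt base, had 5 of 8 lower, among them Ang4 (-3.13), Mmp7 (-1.43), Defa30 (-1.31) and Defa24 (-1.02). Cells with fractional counts held 95.8% and 92.3% of the Defa30 UMIs and 91.0% and 88.5% of the Defa24 UMIs. With the small clusters left out 1 of 7 was lower and Mmp7 stood at 0.14. Of 5 tested enteroendocrine genes the hormone-lineage factors Neurog3 and Neurod1 were lower (-4.38 and -4.89), and of 5 villus-tip genes Klf4 was (-1.02). Neurog3 and Neurod1 were scarce in the Ly6a-high sums and passed the filter on low counts through the Ly6a-zero sums. The 10 tuft cell genes were too low to test.

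Immune cell markers had 10 of 11 tested genes lower, and the other 14 of the 25 were too low to test. The 10 were scarce in the Ly6a-high sums and passed the filter on low counts through the Ly6a-zero sums. Their direction was thus largely fixed by the filter. Gzma, the protease of cytotoxic lymphocytes, was at 2.84 and 1.83 CPM in Ly6a-high sums and 114 and 65.7 in Ly6a-zero sums (log2 -5.26 ± 0.24). Nkg7 and Laptm5 had 0 UMIs in both Ly6a-high sums. When the few cells with at least 3 T-cell marker UMIs were left out, 1 of these markers was still abundant enough to test and it was not called, while 370 genes were called higher and 382 lower, with 13 members of the regenerative list and 11 of the p53 list among the higher. When all cells with an immune or stromal marker UMI were left out, 354 genes were higher and 362 lower, with 15 of 15 tested members of the regenerative list and 12 of 16 of the p53 list higher. Ly6a is also carried by lymphocytes, and all T-marker cells of the pairs were Ly6a-zero.

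**Figure D4:**
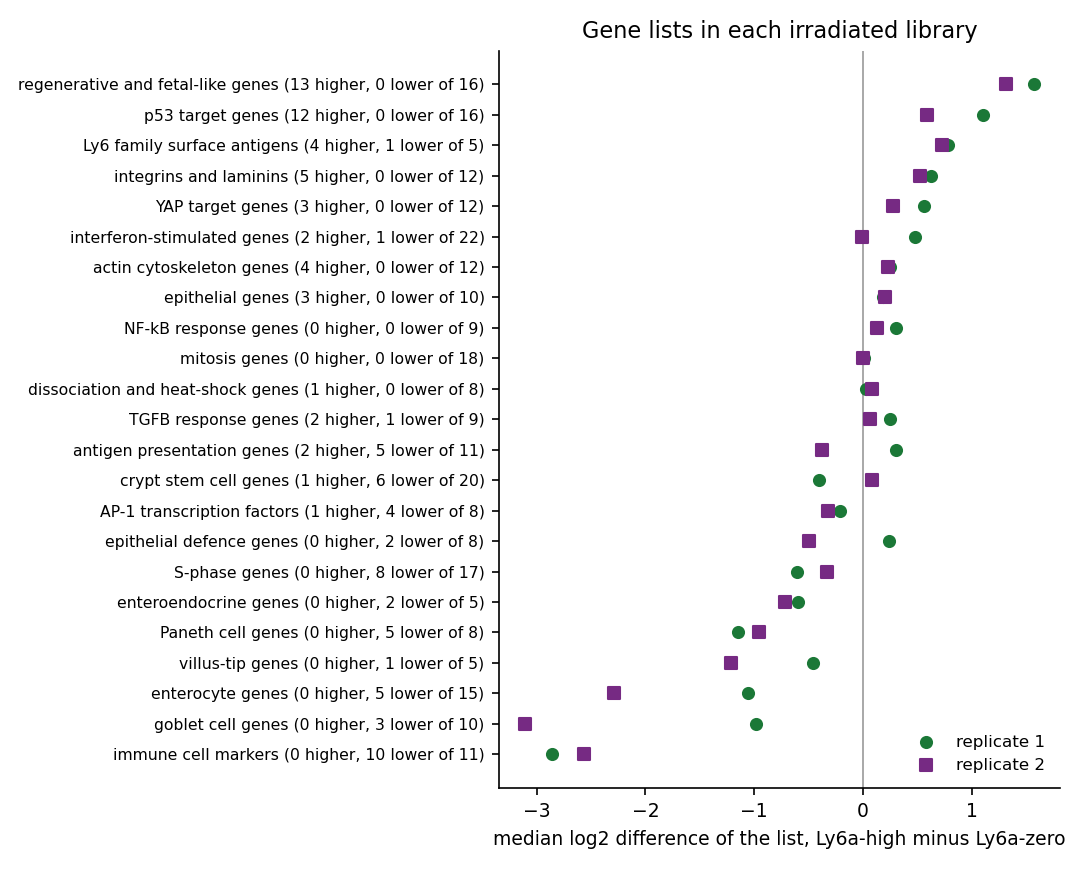
Median log2 difference (Ly6a-high minus Ly6a-zero, x axis) of each gene list in replicate 1 (green circles) and replicate 2 (purple squares), with the number of genes called higher and lower of those tested in brackets. The regenerative list lies highest at 1.57 and 1.31 and mitosis genes at 0.00 and 0.00, and the lowest list is that of immune markers in replicate 1 (-2.86) and of goblet cell genes in replicate 2 (-3.11).

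Clusters of the 1418 irradiated cells, made without genes of the Ly6 family, show where the Ly6a-high cells lie, as a description. In cluster 0 (260 cells; leading genes Sprr1a, Tm4sf4, Gsta1, Clu, Lgals3 and Anxa8) 68.1% of replicate 1 and 64.6% of replicate 2 cells were Ly6a-high. Cluster 4 (173 cells), led by small RNAs and by Dmbt1, Reg3g and Reg3b, had 71.8% and 62.7%. In clusters 2 and 3 (195 and 177 cells), both led by Olfm4, Ly6a-high cells made up 32 of 120 and 19 of 75 cells, and 32 of 117 and 15 of 60. Ly6a-high cells were thus spread over several states and were found in the Olfm4-led clusters too. The goblet-like cluster 7 (47 cells) had 12.9% and 6.25%, the enterocyte-like cluster 8 had 0 of 9 and 1 of 31 cells, and the enteroendocrine-like and immune-like clusters (10 and 6 cells) had 0. Clusters 1 and 6 were led by mitochondrial, ribosomal or small non-coding RNAs (48.7% and 41.1%, and 19.6% and 14.0%), and their cells were shallower, with a median of 8844 and 6893 UMIs. Dmbt1, a mucosal defence protein, was also called in the paired comparison (log2 0.71, at 506 and 359 against 280 and 241 CPM). Clusters 0 to 6 are left without a cell type name. The Paneth-like cluster had 8 cells, 1 of them Ly6a-high.

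**Figure D5:**
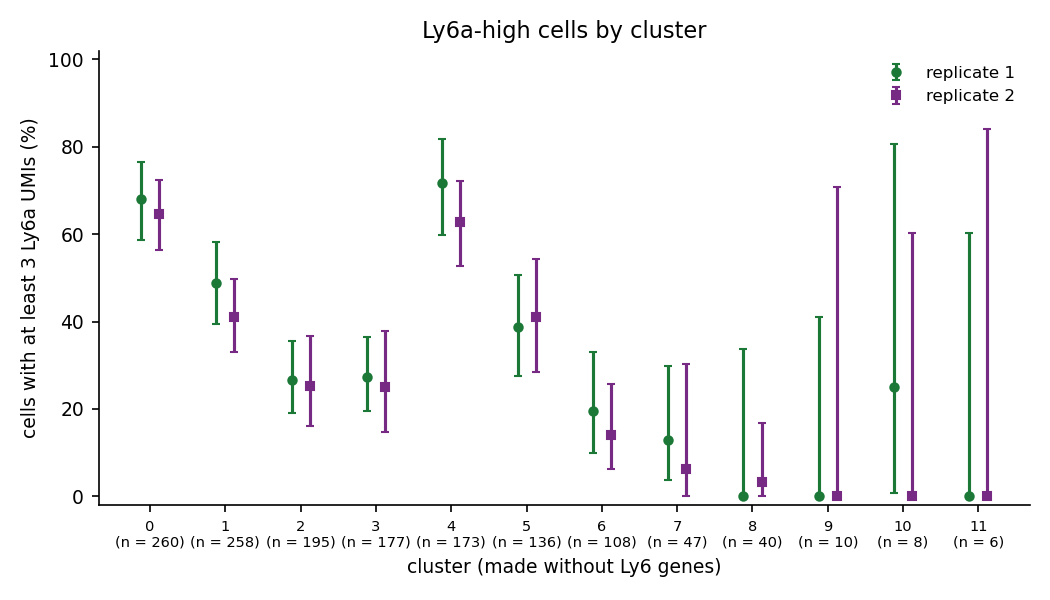
Percent of cells with at least 3 Ly6a UMIs in each of 12 clusters (x axis, number of cells in brackets), with exact 95% binomial intervals, green circles for replicate 1 and purple squares for replicate 2. Clusters 0 and 4 lie highest in both libraries, at 62.7% to 71.8%, and the intervals of clusters 8 to 11 are wide because they hold 6 to 40 cells.

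The genes of Ly6a-high cells were then read in the bulk organoid libraries, which asks whether TGFB1 moves the same genes in culture. FPKM values were compared on the scale log2(FPKM + 1) with limma and Benjamini-Hochberg adjustment, in 3 tables normalised separately. TGFB1 changed many genes, with 35.8% higher and 39.7% lower on day 7 after irradiation, 33.3% and 34.9% on day 7 without irradiation, and 32.3% and 31.6% on day 11 after irradiation. Of the genes higher in Ly6a-high cells, 269 of 364 tested (73.9%) were higher with TGFB1 on day 7 after irradiation, 259 of 358 (72.3%) on day 7 without, and 237 of 373 (63.5%) on day 11. Lower were 50, 59 and 58 of them. The median log2 change of these genes was 0.65, 0.57 and 0.53. Of the genes lower in Ly6a-high cells, 190 of 312 (60.9%), 195 of 311 (62.7%) and 140 of 313 (44.7%) were lower with TGFB1. Higher were 83 (26.6%), 64 (20.6%) and 68 (21.7%) of them.

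S100a6 went from 143, 150 and 171 FPKM with vehicle to 1373, 1340 and 1589 with TGFB1 on day 7 after irradiation. Clu went from a mean of 191 ± 15.3 to 3968 ± 165 FPKM (SD, n = 3) in the same comparison, Anxa8 from 5.19 to 173, Ly6d from 8.17 to 164, and Pmepa1 from 9.14 to 223. In none of these 5 genes did the groups overlap, and all were called higher by limma in all 3 tables. Ly6c1 was an exception, at 2.63 ± 0.274 and 2.52 ± 0.940 FPKM on day 7 after irradiation (log2 -0.07, not called), and called higher in the other tables (log2 0.60 without irradiation and 2.85 on day 11). Mdm2 was higher in all 3, by 0.52 on day 7 after irradiation, 0.14 without and 1.17 on day 11. Olfm4 was lower on day 7 (log2 -1.45 after irradiation, -2.26 without) and higher on day 11 (0.94). Ly6a itself was at 29.0 and 49.5 FPKM (vehicle and TGFB1) on day 7 after irradiation, 131 and 292 on day 7 without, and 47.2 and 248 on day 11, higher with TGFB1 in each by limma.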

How the data were processed

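Single-cell libraries were made with the PIPseq T2 kit, per the labels' protocols. The deposited single-cell matrices hold estimated counts, UMIs per gene and cell that the authors' counting in part split between genes, as deposited in fractional form. The authors made the bulk tables as deposited, in FPKM. The submitters' processing notes name STARsolo, STAR 2.7.10a, Salmon 1.4, TopHat2 2.1.0 and Cuffnorm 2.2.1 and the builds mm9, mm39 and GRCm39, without saying which step made which file. Cells were kept with at least 500 UMIs and at most 20% mitochondrial UMIs. Ly6a was left out of totals and tests. Ly6a-high and Ly6a-zero cells of a library were paired by total UMIs within 0.25 on the log2 scale, by optimal assignment without reuse (SciPy 1.17.1). Summed counts were rounded and tested with edgeR 4.0.16 (TMM scaling, its filter on low counts, library as block, 1 residual degree of freedom among the 4 sums). Fold changes are edgeR's log2 values. DESeq2 1.42.0 and the other settings were alternatives. Bulk values were tested with limma 3.58.1 on log2(FPKM + 1), over genes averaging 1 FPKM or more. Cells were clustered with Scanpy 1.11.5 and leidenalg 0.10.2, and Scrublet marked 0 or 1 cell per group, too few to rely on. Dispersion gave a biological coefficient of variation of 9.77%. On simulated counts for these 11610 genes, edgeR recovered 67.2%, 95.5% and 93.9% of genes changed by 1, 1.5 and 2 on the log2 scale. There were 9 false calls. Simulated counts need not vary as the measured sums do, so these values do not check the calls made on the measured sums. On the measured sums edgeR called 426 genes higher and 442 lower, DESeq2 60 and 74, and edgeR without the library block 22 and 37. Intervals are exact binomial or Poisson at 95%.

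The members and all 25 gene lists were chosen with earlier results of these data known. Named genes are the 15 largest and 10 smallest called differences with the same sign in both libraries and a mean of at least 50 CPM in the higher group, without Gm, Rik, mitochondrial and ribosomal protein genes, up to 4 examples per list, and Clu, Anxa1, Lgr5, Olfm4, Mki67, Fabp1, Epcam and Ptprc. Other genes named, such as Anxa2, Cdkn1a, Cd44, Ccn1 and Rgcc and the remaining members of short lists, were picked after their values were seen. Leaving out T-marker cells and leaving out clusters 7 to 11 were chosen after seeing the data. Promoters were read from RefSeq (GRCm38.p6). Some genes that the rule or lists would name are not reported here.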

Additional observations from a re-analysis of the deposited data

How the results depend on the processing

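Genes called higher and lower (426 and 442) became 175 and 274 without depth matching, 275 and 196 with cells thinned to 5000 UMIs, 260 and 272 without clusters 7 to 11, 70 and 51 with pairs formed within clusters, 22 and 37 without the replicate block, and 60 and 74 with DESeq2; the cause was not tested. Of the genes called with pairs formed within clusters, 61 of 70 and 35 of 51 were among the 426 and 442, and with DESeq2 57 of 60 and 69 of 74. Under the other settings the counts lay within 1.5 times. Genes called the same way in all 16 settings were 14 higher (Akr1b8, Ano1, Anxa1, Anxa2, Anxa3, Anxa8, Capg, Gprc5a, Inf2, Ly6c1, Ly6d, Pmepa1, S100a14 and Sprr1a) and 3 lower. Over named genes and settings, 237 values lost the call, 18 gained it and 5 turned: Cd74 to 0.76 without clusters 7 to 11 and 0.53 within clusters, Mmp7 to 0.14 and 1.40, and Defa24 to 0.20 within clusters. Another 1562 were labelled unchanged. Those include values with 1 library left out, which have no call and were compared by distance from the main value. Of such values 8 moved by at least the SD between the 2 libraries. The share of Ly6a-high cells was 50.6% and 49.9% at 2 UMIs, 28.1% and 30.3% at 5 UMIs, and 31.5% and 31.0% after thinning.

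With 1 library left there is no residual degree of freedom, so leaving out a replicate gave values per library but no count of calls. The planned matched comparison in the non-irradiated and organoid libraries was not run, because they held 0 to 14 Ly6a-high cells. In bulk tables the replicate numbers did not pair the samples (correlations of -0.0856 to 0.213), and with a replicate block 233 of the 426 genes were called higher on day 11 against 237 without. Thin counts limit Ly6d, Sprr1a, Ly6c1, Lama3, Gbp2, Tgfbi, Atoh1, Neurod1 and other genes of few UMIs. A gene scarce in 1 cell group could pass the filter on low counts only through the other, so its direction was largely fixed.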

Other observations

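Besides the genes described above, 4 genes called higher in Ly6a-high cells in all 16 settings belong to no list and were picked after their values were seen. Akr1b8, an aldo-keto reductase, was at 144 and 159 CPM against 65.7 and 82.8 in Ly6a-zero cells (log2 1.03 ± 0.12). Gprc5a, an orphan receptor, was at 36.9 and 41.3 against 8.68 and 15.6 CPM (1.73 ± 0.22). The formin Inf2, which assembles actin, was at 64.1 and 68.4 against 22.6 and 33.4 CPM (1.26 ± 0.17), and the chloride channel Ano1 was higher by 1.97 ± 0.26. The groups did not overlap for Akr1b8, Gprc5a and Inf2.

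Of 36 tested genes of the mitochondrial genome 6 were lower and 0 higher (median log2 -0.56), and of 110 ribosomal protein genes 3 were higher and 1 lower (median 0.04). Ly6a stood at 0.483 to 7.15 CPM in the 4 single-cell organoid libraries and at 29.0 to 292 FPKM in group means of the bulk organoid tables, which differ in TGFB1 dose, day and method.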
